A study of Mus musculus with 33 samples.

Results

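The genes described are those of the mitochondrial respiratory chain and ATP synthase, chosen by name: probes annotated to a gene whose name starts with Ndufa, Ndufb, Ndufc, Ndufs, Ndufv, Uqcr, Cox4, Cox5, Cox6, Cox7, Cox8 or Atp5, or is Sdha, Sdhb, Sdhc, Sdhd, Cyc1 or Cycs. The rule took 84 of the 27962 gene names on the array, through 117 of its 41174 probes. They comprise 36 genes of complex I, 4 of complex II, 8 of complex III, cytochrome c, 18 of complex IV and 16 of complex V, and 1 gene outside the chain. That gene is Cox4nb, now named Emc8, a subunit of a membrane protein complex of the endoplasmic reticulum that neighbours Cox4i1. The prefixes also took in Ndufaf1, an assembly factor of complex I, and Atp5s, now named Dmac2l. The brightest probe stood for each gene. In all, 82 genes passed the filter on dim probes and were tested among 15915 genes, and Cox4i2 and Cox8b did not pass.

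Each of 33 one-colour arrays held amplified RNA of 1 mouse blastocyst of the strain (C57BL/6NxDBA/2)F1. Cloned blastocysts came from adult male Purkinje neurons (n = 4), adult male hippocampal CA1 neurons (n = 4), neonatal Sertoli cells of the testis (n = 4), adult female Purkinje (n = 4) and CA1 neurons (n = 4) and cumulus cells, which surround the oocyte (n = 3), and were set against male (n = 7) and female (n = 3) in vitro fertilised (IVF) blastocysts. Every clone had been given trichostatin A (TSA), a histone deacetylase inhibitor, at 50 nM during 1 h of activation, the next 5 h, in which cytochalasin B was present, and a final 2 h, and IVF blastocysts had not, so cloning and TSA cannot be told apart. All embryos were cultured for 96 h. The number of donors and of transfer sessions per group is not in the labels, so p-values cover only the variation among these arrays, part of which may be technical.

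Complex I passes electrons from NADH, and complex II from succinate, to ubiquinone. Complex III passes them to cytochrome c and complex IV to oxygen, and complexes I, III and IV pump protons whose return through complex V, the ATP synthase, drives the making of ATP. The blastocyst is the stage at which the trophectoderm pumps sodium to fill the cavity, and its oxygen use and ATP output by the chain rise over those of earlier cleavage stages. Nuclear genes encode all of complex II and most other subunits. The mitochondrial genome encodes the remaining 13, of which 0 were found by name among the probes. A probe described as a NADH dehydrogenase subunit, but without a mitochondrial gene name, was left out.

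All 6 markers of the inner cell mass and all 6 of the trophectoderm stood well above background on all 33 arrays. Of the markers of donor and maternal cells, 4 of 6 of Purkinje cells, 5 of 6 of CA1 cells, 6 of 6 of Sertoli cells, 6 of 6 of cumulus cells and 5 of 5 of the oocyte were so on at least 1 array, and 2, 4, 3, 2 and 2 on over 50% of the arrays. Pcp2 of Purkinje cells, Wfs1 and Nefl of CA1 cells, Amhr2 of cumulus cells and Gdf9 of the oocyte were so on all 33 arrays, whereas Calb1 and Pvalb of Purkinje cells and Neurod6 of CA1 cells were so on 0. The part of RNA from such cells in the results was not tested. Pairs of replicates had a correlation over genes between 0.93 and 0.98. The IVF and cumulus arrays came from another scanner model and another version of the extraction software than the remaining 20, so a neuronal or Sertoli donor cannot be told apart from array set against IVF. The cumulus comparison and those between clones lay within an array set, but each clone group had a slide of its own. No clone group shared a scan day with IVF blastocysts or with clones of another donor type. Donor therefore cannot be told apart from slide and scan day in these comparisons. Purkinje arrays were dim, with a 75th percentile of the signal of 229.7 to 659.06 in males and 353.84 to 837.97 in females, against 904.3 to 1465.6 elsewhere. Sertoli arrays had the lowest share of probes well above background, 45.24% to 46.08%, against 48.88% to 62.48% on the other arrays. The part of this in the Sertoli results was not tested.

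Promoter windows of 300 bases, 250 before to 50 after a transcription start, were at hand for 68 of the 84 genes (73 windows, RefSeq, build GRCm38.p6). They were searched on both strands for words bound by factors known for this gene class. The NRF1 word (in capitals in the first 2 stretches below) was in 5 windows (6.85%, against 0.971% of all 32851 windows) and the YY1 word (in capitals in the Atp5j stretch) in 5 (6.85% against 0.852%). The ETS word CCGGAAGT, bound by GABP among others, was also in 5 (6.85% against 3.89%), and the ESRRA word TCAAGGTCA in 2 (2.74% against 0.423%). Member windows had a median GC content of 57.67%, against 52.67% of all windows. The stretches below, 5′ to 3′ on the gene's strand with the word in capitals, belong to an NRF1 pair (Cox6a1 and Atp5g2), a YY1 gene (Atp5j), an ESRRA gene (Atp5g3) and an ETS gene (Uqcr, now Uqcr11), and they are shown because the levels of the first 4 differed between groups.
Cox6a1, chr5:115349086-115349145, minus strand: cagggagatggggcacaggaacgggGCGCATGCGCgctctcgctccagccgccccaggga
Atp5g2, chr15:102671055-102671114, minus strand: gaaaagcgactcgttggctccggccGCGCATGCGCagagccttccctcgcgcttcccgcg
Atp5j, chr16:84835030-84835089, minus strand: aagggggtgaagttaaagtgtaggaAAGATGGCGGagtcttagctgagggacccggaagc
Atp5g3, chr2:73911345-73911403, minus strand: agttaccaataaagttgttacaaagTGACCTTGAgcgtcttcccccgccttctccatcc
Uqcr, chr10:80406855-80406912, minus strand: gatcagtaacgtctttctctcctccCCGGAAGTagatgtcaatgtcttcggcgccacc
Counted from the start site, the first base of the word lay at -162 in Cox6a1, -42 in Atp5g2, -88 in Atp5j, -52 in Atp5g3 and -66 in Uqcr. A matching word is a description of the sequence only, and binding was not measured.

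The genes were abundantly transcribed in every group. Of the 82 tested, 80 stood well above background on all 33 arrays and 77 had a mean signal above the 75th percentile of all probes. Levels below are log2 of the signal over that percentile of the same array, so 0 is the percentile itself. The median over the 82 genes was 5.24 ± 0.16 (SD, n = 7) in male IVF blastocysts, 5.39 ± 0.13 (n = 4) in male Purkinje, 5.32 ± 0.09 (n = 4) in male CA1 and 5.13 ± 0.20 (n = 4) in Sertoli clones. In females it was 5.17 ± 0.20 (n = 3) in IVF blastocysts, 5.52 ± 0.19 (n = 4) in Purkinje, 5.46 ± 0.49 (n = 4) in CA1 and 4.73 ± 0.05 (n = 3) in cumulus clones. The cumulus arrays were the lowest of the series at 4.70 to 4.79, below all 3 female IVF arrays at 4.94 to 5.30, and female CA1 clones spread from 4.89 to 6.09. In whole blastocysts, fewer cells of a type and less RNA per cell cannot be told apart.

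The order of the groups depended on the normalization. Scaling divides an array by 1 number, whereas quantile normalization gives all arrays the same distribution of signals. After quantile normalization the group means were 5.42 in male IVF, 5.17 in male Purkinje, 5.28 in male CA1 and 5.01 in Sertoli blastocysts, and 5.39, 5.26, 5.28 and 4.93 in female IVF, Purkinje, CA1 and cumulus blastocysts. The Purkinje means thus lay above IVF on the scaled values, where the male arrays overlapped (5.27 to 5.58 against 5.00 to 5.40), and below IVF after quantile normalization. The Sertoli and cumulus means lay below IVF in both, and the Sertoli arrays overlapped male IVF on the scaled values at 4.96 to 5.36.

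**Figure D1:**
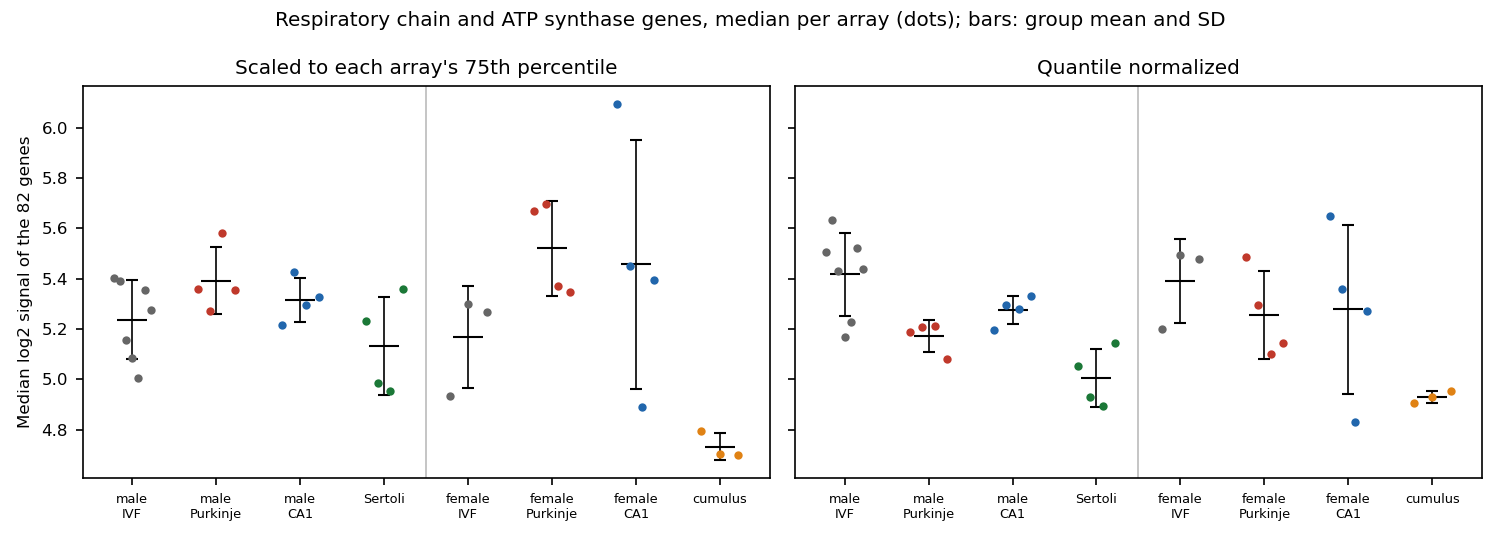
Median log2 signal of the 82 tested genes on each of the 33 arrays (dots), by group, after scaling to the 75th percentile (left) and after quantile normalization (right); bars give the group mean and SD. The 3 cumulus arrays sit at 4.70 to 4.79 on the left, and the Purkinje groups move from above to below the IVF group between the panels.

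A gene was called where limma's adjusted p, over all 15915 genes, was under 0.05. Against male IVF, male Purkinje clones had 20 of the 82 genes higher and 4 lower (24.4% and 4.88%, against 18.2% and 10.3% of all genes, and 28.5% in either direction). The median change was 0.29, and 0.07 over all genes. After quantile normalization 3 were higher and 15 lower (against 12.1% and 13.5% of all genes, 25.5% in all), with a median of -0.07, and after array median scaling 2 were higher and 11 lower (against 6.73% and 16.3% of all genes). In male CA1 clones 11 were higher and 14 lower (13.4% and 17.1%, against 17.6% and 13.3% of all genes, 30.9% in all), with a median of 0.09, and after quantile normalization 9 and 18 (against 15.6% and 15.5%, 31.1% in all). In Sertoli clones 6 were higher and 8 lower (7.32% and 9.76%, against 14.9% and 10.8%, 25.7% in all), with a median of -0.07, and after quantile normalization 3 and 22 (against 11.2% and 13.1%, 24.4% in all) with a median of -0.26. The share called in either direction was 29.3%, 30.5% and 17.1% in the 3 male comparisons on the scaled values, and 22%, 32.9% and 30.5% after quantile normalization.

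Against female IVF, female Purkinje clones had 16 genes higher and 0 lower (19.5% higher, against 13% of all genes higher and 6.61% lower, 19.6% in all). The median change was 0.45, and 0.08 over all genes. After quantile normalization 2 were higher and 2 lower (against 7.55% and 8.7%, 16.2% in all), and the median was -0.06. After array median scaling 0 were higher and 9 lower (against 2.93% and 17.6% of all genes). Female CA1 clones had 4 higher and 2 lower (against 8.36% and 4.87% of all genes, 13.2% in all), and 1 and 6 after quantile normalization (against 4.98% and 6.54%, 11.5% in all). Cumulus clones had 0 higher and 4 lower (4.88% lower, against 1.97% of all genes higher and 3.33% lower, 5.3% in all). After quantile normalization 1 was higher and 11 lower (13.4% lower, against 2.46% of all genes higher and 4.37% lower, 6.82% in all).

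Leaving out the 5 Purkinje arrays with a 75th percentile under 500 left 2 genes higher and 3 lower in male Purkinje clones (against 7.06% and 3.56% of all genes, 10.6% in all) and 0 called by limma in female ones (1.99% of all genes), where 14 were at an unadjusted p under 0.05 (15.7% of all genes). It leaves 2 male arrays and 1 female array, and the lone female array is assumed to vary like the other groups. Removing male Purkinje replicate 3 alone left 13 calls of 24, and removing female IVF replicate 1 left 8 of 16 in female Purkinje clones. Calls over all genes were not counted in these 2 fits. Levels on all male Purkinje arrays are given below for several genes called higher there. Of these, Ndufb3, Ndufs5, Ndufc1, Uqcrc2, Uqcrb, Cox7c, Atp5b and Atp5g3 had their highest level on a dim array, and Atp5j did not. The part of the dim arrays in the Purkinje counts and levels was not tested beyond these values.

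**Figure D2:**
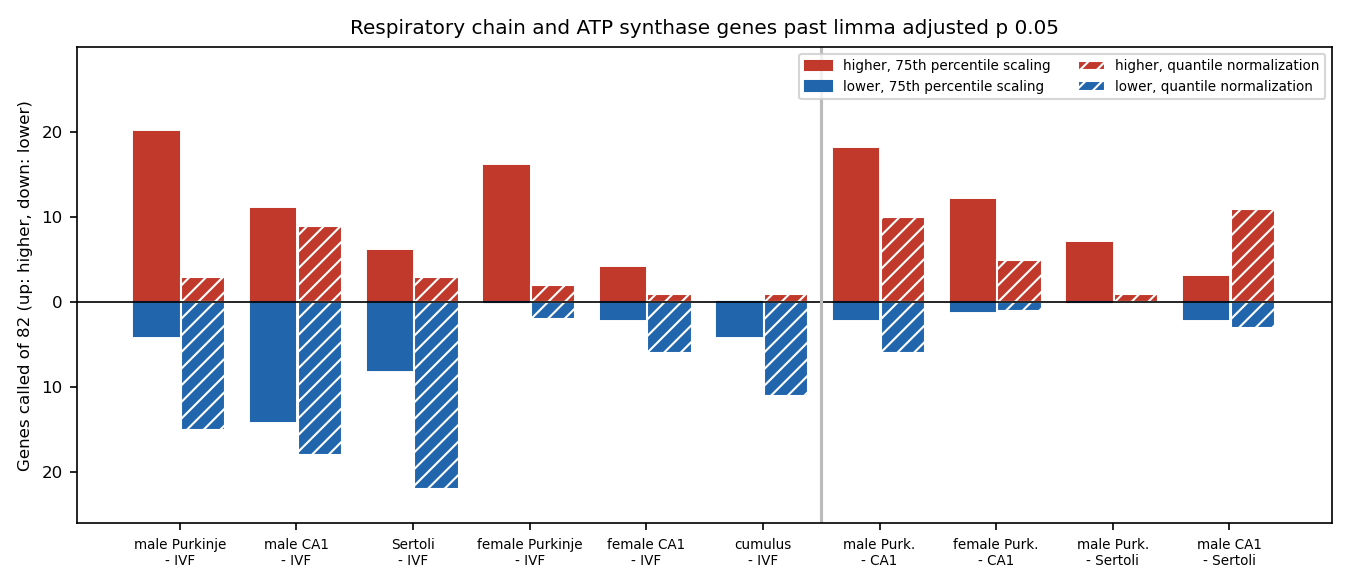
Number of the 82 genes called higher (upward bars) or lower (downward bars) in 10 comparisons, under 75th percentile scaling (plain) and quantile normalization (hatched). Male Purkinje clones against IVF turn from 20 higher and 4 lower to 3 higher and 15 lower, whereas both bars of the cumulus clones are mainly downward.

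Over the 6 comparisons with IVF, 28 of the 82 genes were called higher only, 18 lower only, 4 in both directions and 32 in none (34.1%, 22%, 4.88% and 39%, against 33.3%, 21.9%, 1.56% and 43.2% of all genes). The comparisons of a sex share their IVF arrays. After quantile normalization the numbers were 12, 41, 1 and 28 (14.6%, 50%, 1.22% and 34.1%, against 27%, 27%, 1.24% and 44.8% of all genes). Genes called the same way under 75th percentile, quantile, array median and normexp processing are said below to hold in all 4. They numbered 2 higher and 3 lower in male Purkinje (against 6.52% and 9.36% of all genes), 4 and 12 in male CA1 (10.3% and 12.2%) and 3 and 6 in Sertoli clones (8.09% and 9.18%). In females they numbered 0 and 0 in Purkinje (2.83% and 5.45% of all genes), 1 and 0 in CA1 (3.38% and 3.32%) and 0 and 1 in cumulus clones (1.19% and 1.33%).

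**Figure D3:**
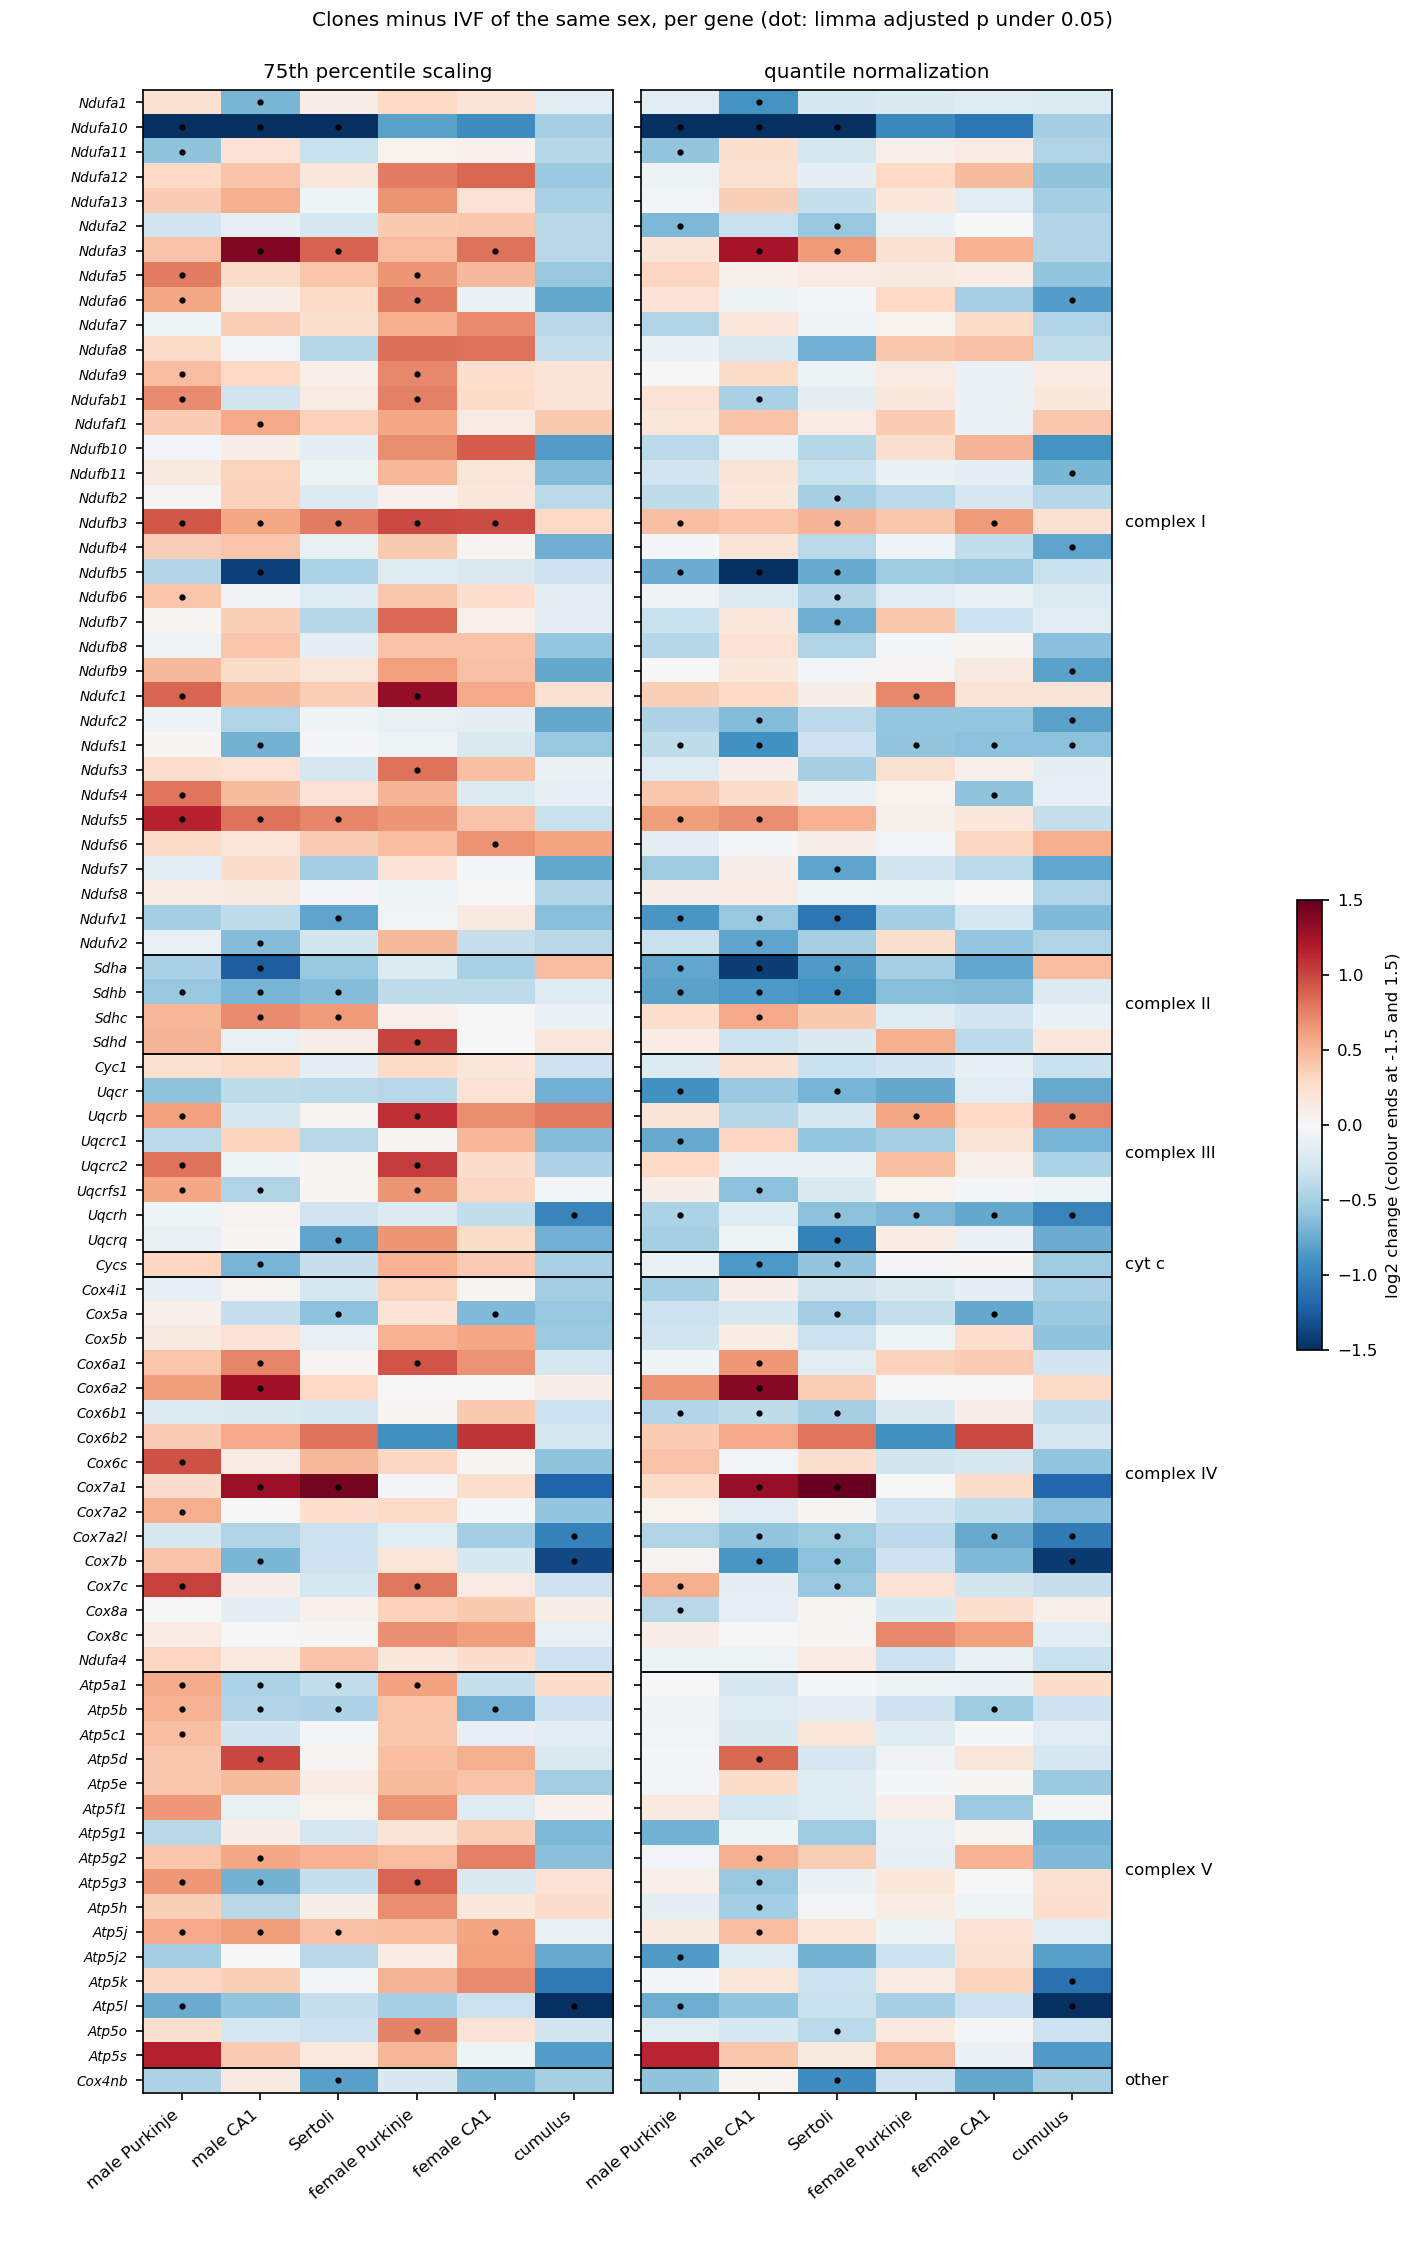
log2 change of the tested genes described here (rows, by complex) in clones minus IVF blastocysts of the same sex (columns), under 75th percentile scaling (left) and quantile normalization (right); colour ends at -1.5 and 1.5, and a dot marks limma's adjusted p under 0.05. Ndufa10 reaches the blue end in the first 3 columns, Ndufb3 has a dot in the first 5 columns of the left panel, and many red cells of the Purkinje columns fade on the right.

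Ndufb3, an accessory subunit of the membrane arm of complex I, was called higher in 5 of the 6 comparisons. Its levels ran from 4.67 to 5.85 (median 5.51) in male IVF blastocysts. They were 5.96, 6.27, 6.84 and 6.38 in male Purkinje, 5.84, 6.11, 6.07 and 6.02 in male CA1 and 6.28, 6.19, 6.02 and 6.34 in Sertoli clones. Every male Purkinje and Sertoli array lay above every male IVF array, and 1 male CA1 array fell just inside the IVF range. Female IVF blastocysts had 5.02, 5.57 and 5.89, against 6.08, 6.77, 6.69 and 6.39 in female Purkinje and 6.86, 6.36, 6.24 and 6.39 in female CA1 clones, with no overlap. The rises were 0.93 ± 0.20 (SE; limma adjusted p = 0.00099), 0.58 ± 0.20 (0.0272), 0.78 ± 0.20 (0.00511), 0.99 ± 0.24 (0.00513) and 0.97 ± 0.24 (0.00838) in male Purkinje, male CA1, Sertoli, female Purkinje and female CA1 clones. After quantile normalization they were 0.45, 0.42, 0.51, 0.41 and 0.64, of which those of male Purkinje, Sertoli and female CA1 clones were called. Cumulus clones, at 5.72, 6.12 and 5.52, overlapped female IVF.

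Ndufa10, an accessory subunit of the membrane arm related to nucleoside kinases, was lower in clones. Male IVF blastocysts ranged from 1.60 to 3.67 (median 3.03). Male Purkinje clones had 1.61, 1.39, 1.12 and 1.08, male CA1 clones 1.02, 1.08, 1.43 and 1.64, and Sertoli clones 1.45, 0.73, 1.11 and 1.14. The Sertoli arrays lay below all 7 IVF arrays, and 1 array each of the neuronal groups reached just above the lowest IVF array. The falls were 1.52 ± 0.29 (limma adjusted p = 0.000302), 1.53 ± 0.29 (0.000193) and 1.71 ± 0.29 (9.12e-05), and they held in all 4 normalizations. In females IVF blastocysts had 1.86, 2.64 and 2.51, Purkinje clones 2.20, 1.26, 1.36 and 1.30, CA1 clones 1.32, 1.52, 1.18 and 1.62, and cumulus clones 1.64, 1.85 and 2.03. CA1 clones lay below all female IVF arrays, Purkinje and cumulus clones overlapped them, and none of the 3 changes was called. The test of the sex difference itself called neither (a difference of effects, male minus female, for Purkinje -0.71 ± 0.45, limma adjusted p = 0.74; CA1 -0.60 ± 0.45, adjusted p = 0.614).

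Ndufa3, another membrane arm subunit, was higher in male CA1 clones at 3.79, 4.25, 3.83 and 3.76, against 2.25 to 2.77 (median 2.63) in male IVF. The groups were well apart, with a rise of 1.38 ± 0.21 (limma adjusted p = 1.42e-05) that held in all 4 normalizations. Sertoli clones, at 3.46, 3.06, 3.29 and 3.83, also cleared the IVF range (0.89 ± 0.21, adjusted p = 0.00282). Female CA1 clones had 4.25, 3.29, 2.98 and 3.13 against 2.25, 2.82 and 2.73 (0.81 ± 0.26, adjusted p = 0.0346; after quantile normalization 0.52, adjusted p = 0.156). A dimmer probe of the gene differed in size, with 0.34 in male CA1 and 1.92 in male Purkinje clones.

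Ndufs5, an accessory subunit with paired cysteines on the intermembrane side, varied among male IVF blastocysts from 5.16 to 6.65 (median 6.23). Male Purkinje clones had 7.08, 6.93, 7.20 and 7.12, all above that range. Male CA1 clones had 6.80, 7.01, 6.59 and 6.58 and Sertoli clones 6.88, 6.53, 6.49 and 6.74, overlapping its top. The rises were 1.15 ± 0.24 (limma adjusted p = 0.000674), 0.82 ± 0.24 (0.00966) and 0.73 ± 0.24 (0.0236), and 0.63, 0.70 and 0.52 after quantile normalization, where the Sertoli one was not called.

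Ndufc1, a small accessory subunit, rose in the Purkinje clones of either sex. Male Purkinje clones had 6.33, 6.28, 7.05 and 6.78, all above the male IVF range of 5.39 to 6.22 (median 5.65). Female Purkinje clones had 6.45, 7.05, 6.99 and 6.61 against 4.80, 5.61 and 5.95 in IVF, also apart. The rises were 0.88 ± 0.21 (limma adjusted p = 0.00302) and 1.32 ± 0.26 (0.000832). After quantile normalization they were 0.36 and 0.72, the first not called. In both sexes the highest levels were on arrays with a 75th percentile under 500, and their part was not tested.

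Of the 7 core subunits of the list, which carry redox centres, 0 were higher and 3 lower in male CA1 clones (beside 17.6% and 13.3% of all genes). After quantile normalization 0 were higher and 4 lower (beside 15.6% and 15.5% of all genes). Ndufs1, which holds iron-sulfur clusters of the peripheral arm, was 4.96, 5.17, 4.91 and 4.62, below the male IVF range of 5.48 to 5.91. It fell by 0.71 (SE 0.14, limma adjusted p = 0.000283). Ndufv2, an iron-sulfur subunit of the NADH module, was 2.15, 2.27, 1.60 and 1.67 against 2.03 to 3.01 and fell by 0.66 (SE 0.20, adjusted p = 0.0118). Both falls held in all 4 normalizations. Ndufb5, an accessory subunit, fell with them by 1.40 (SE 0.26, adjusted p = 0.00018), to 2.29, 2.75, 2.36 and 2.03 from 3.27 to 4.10. In Sertoli clones Ndufv1, which binds NADH and flavin, fell by 0.79 (SE 0.22, adjusted p = 0.00987). Its Sertoli levels of 4.95, 4.45, 4.73 and 4.99 overlapped those of male IVF at 4.93 to 6.17.

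Sdhb, the iron-sulfur subunit of complex II, ranged from 2.99 to 3.52 (median 3.44) in male IVF. It was 2.56, 3.40, 2.58 and 2.44 in male Purkinje, 2.82, 2.83, 2.51 and 2.29 in male CA1 and 2.82, 2.62, 2.90 and 2.30 in Sertoli clones. CA1 and Sertoli arrays lay below all IVF arrays, and Purkinje replicate 2 lay within them. The falls were 0.57 (SE 0.20, limma adjusted p = 0.032), 0.70 (SE 0.20, 0.00771) and 0.65 (SE 0.20, 0.016), and held in all 4 normalizations. Female changes in Sdhb were not called.

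Sdha, the flavoprotein that oxidises succinate, fell in male CA1 clones to 2.60, 2.81, 2.54 and 1.94. Male IVF blastocysts had 3.47 to 3.96 (median 3.56), so the groups did not overlap, and the fall was 1.23 (SE 0.22, limma adjusted p = 9.37e-05). It held in all 4 normalizations, and a second probe of the gene changed by -1.37. Sdhc, a membrane anchor with a part in haem and quinone binding, was instead higher in male CA1 (3.15, 3.58, 3.19 and 3.39) and Sertoli clones (3.49, 3.00, 3.30 and 3.21) than in male IVF (2.01 to 3.08, median 2.77). The CA1 arrays cleared the IVF range and 1 Sertoli array did not. The rises were 0.71 ± 0.20 (adjusted p = 0.00644) and 0.64 ± 0.20 (0.0174), and 0.56 and 0.39 after quantile normalization, the second not called. Sdhd, the other anchor, was higher in female Purkinje clones at 5.19, 5.54, 5.62 and 5.37 than in female IVF at 4.35, 4.14 and 4.76. The rise was 1.01 ± 0.26 (adjusted p = 0.0076), and 0.53 after quantile normalization (adjusted p = 0.148).

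Of the 8 genes of complex III, 3 were higher and 0 lower in Purkinje clones of each sex on the scaled values (beside 18.2% and 13% of all genes higher). After quantile normalization 0 were higher and 3 lower in males (beside 12.1% and 13.5% of all genes). In females 1 was then higher and 1 lower (beside 7.55% and 8.7%). Uqcrc2, a core protein of the matrix side, was 7.36, 7.16, 8.03 and 8.14 in male Purkinje clones, against 6.57 to 6.99 (median 6.93, 6 arrays with a value) in male IVF. In female Purkinje clones it was 7.49, 7.96, 8.01 and 7.82, against 6.87, 6.79 and 6.66. The groups did not overlap in either sex, and the rises were 0.81 ± 0.18 (limma adjusted p = 0.00173) and 1.05 ± 0.22 (0.00147). They were 0.29 and 0.45 after quantile normalization, neither called. The highest Uqcrc2 levels of both Purkinje groups were on arrays with a 75th percentile under 500, whose part was not tested.

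Uqcrb, a small subunit near the quinone site, was 5.34, 5.17, 6.07 and 6.18 in male Purkinje clones, against 4.81 to 5.40 in the 6 male IVF arrays with a value, and so overlapped them. In female Purkinje clones it was 5.06, 5.77, 5.75 and 5.73, above female IVF at 4.23, 4.44 and 4.76. Its levels gave rises of 0.61 ± 0.21 (limma adjusted p = 0.0307) and 1.1 ± 0.25 (0.00316) in male and female Purkinje clones. Uqcrfs1, the Rieske iron-sulfur protein, rose by 0.58 ± 0.16 (0.00943) and 0.66 ± 0.20 (0.0196) there. After quantile normalization the female Uqcrb rise was called, and the male Uqcrb rise and both Uqcrfs1 rises were not. Uqcrfs1 fell in male CA1 clones by 0.45 (SE 0.16, 0.0383), to 5.77, 5.88, 5.63 and 5.41 from 5.92 to 6.46, and this fall held in all 4 normalizations. Cytochrome c itself, Cycs, which carries electrons and also triggers apoptosome assembly, fell in male CA1 clones. Its levels there were 5.19, 5.30, 5.28 and 5.31, below all 6 male IVF arrays with a value (5.44 to 6.40), a fall of 0.69 (SE 0.20, 0.0108) that held in all 4. A second tested probe of Cycs changed by -0.84.

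Among complex IV genes, Cox7c, a small ubiquitous subunit, rose by 1.02 ± 0.18 (limma adjusted p = 0.000103) in male Purkinje clones. Its levels were 6.04, 6.31, 6.69 and 6.41, all above male IVF at 5.05 to 5.58, and the rise held in all 4 normalizations at a size of 0.53 after quantile normalization. In female Purkinje clones it rose by 0.79 ± 0.21 (adjusted p = 0.0102), to 5.97, 6.49, 6.39 and 6.29 from 5.34, 5.24 and 5.90, and by 0.22 after quantile normalization, which was not called. Cox6a1, the common isoform of subunit VIa, whose promoter stretch is printed above, was 7.0, 7.33, 6.96 and 7.21 in male CA1 clones against 5.77 to 6.89 in male IVF, a rise of 0.73 ± 0.19 (adjusted p = 0.00489). In female Purkinje clones it rose by 0.94 ± 0.24 (adjusted p = 0.00593), with 7.08, 7.28, 6.74 and 6.57 all above female IVF at 5.79, 5.80 and 6.34. That female rise was not called after quantile normalization. Cox7b, an X-linked subunit, was 3.09, 3.36, 3.45 and 3.9 in male CA1 clones against 3.84 to 4.26 in male IVF, with 1 array inside that range, and fell by 0.69 (SE 0.25, adjusted p = 0.0367). Cox5a fell in Sertoli clones by 0.61 (SE 0.16, adjusted p = 0.00621) and in female CA1 clones by 0.66 (SE 0.20, adjusted p = 0.0252).

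Several complex IV subunits have forms made mainly in 1 tissue. Cox7a1, the form of heart and skeletal muscle, was low but well above background on all arrays. Male IVF blastocysts had -2.0 to -0.37 (median -1.70), male CA1 clones -0.46, 0.62, -0.41 and -0.42, and Sertoli clones 0.07, -0.16, -0.66 and 0.73. The clones overlapped the highest IVF array only. The rises were 1.28 ± 0.34 (limma adjusted p = 0.00548) and 1.44 ± 0.34 (0.00286), and held in all 4 normalizations. Cox6a2, the muscle form of subunit VIa, lay on the floor of -3.43 on all 7 male IVF arrays, though 3 of these stood well above background. It reached -2.36, -1.29 and -1.57 on 3 of 4 male CA1 arrays, a level too low for a fold. Male and female IVF, female Purkinje and female CA1 blastocysts had only floor values, with an SD of 0. Limma's adjusted p of 0.00796 rests partly on these constant values, so nothing is read from it. Cox6b2, the testis form of subunit VIb, differed between female Purkinje clones at -0.27, -0.14, -0.90 and -1.11 and female CA1 clones at 1.75, 1.44, 1.80 and 0.53. These did not overlap and differed by -1.98 ± 0.35 (adjusted p = 0.000704), in all 4 normalizations, while neither was called against female IVF at 0.12, 0.52 and 0.27. Cox8c, the testis form of subunit VIII, was on the floor on most arrays, and Cox4i2 and Cox8b on every array.

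In complex V, Atp5j, the coupling factor that ties the peripheral stalk to the catalytic head, was higher in 4 comparisons. Male IVF blastocysts lay between 5.59 and 5.86 (median 5.62). Male Purkinje clones had 6.46, 5.97, 6.29 and 6.35, male CA1 clones 6.25, 6.58, 6.31 and 6.15, and Sertoli clones 6.29, 6.14, 6.07 and 6.04. All 12 of these arrays lay above all 7 IVF arrays. Female CA1 clones, with 6.84, 6.07, 5.91 and 6.14, lay above female IVF at 5.5, 5.67 and 5.76. The rises were 0.57 ± 0.15 (limma adjusted p = 0.00528), 0.62 ± 0.15 (0.00207), 0.44 ± 0.15 (0.0314) and 0.59 ± 0.18 (0.0291). After quantile normalization they were 0.13, 0.47, 0.18 and 0.22, of which the male CA1 rise was called.

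Atp5b, the catalytic beta subunit, took opposite directions in Purkinje and in other clones on the scaled values. Male IVF blastocysts had 8.20 to 8.49 (median 8.37), male Purkinje clones 8.54, 8.89, 9.01 and 9.08, male CA1 clones 7.81, 8.23, 7.83 and 7.81, and Sertoli clones 7.88, 7.82, 7.78 and 8.08. Purkinje arrays lay above and Sertoli arrays below all IVF arrays. The changes were 0.52 ± 0.13 (limma adjusted p = 0.00425), -0.44 ± 0.13 (0.0135) and -0.47 ± 0.13 (0.011). After quantile normalization they were -0.05, -0.20 and -0.14, none called, so the direction in Purkinje clones turned. Female CA1 clones had 8.04, 7.69, 7.50 and 7.69, below female IVF at 8.50, 8.43 and 8.41, a fall of 0.72 (SE 0.16, adjusted p = 0.00414) and of 0.53 after quantile normalization (adjusted p = 0.00752). Of the 2 dimmer probes of Atp5b, 1 changed by -0.23 and the other by 0.11 in male Purkinje clones, and by -0.65 and -0.65 in female CA1 clones. Atp5a1, the alpha subunit, went the same way as the brightest Atp5b probe, with called changes of 0.55, -0.47 and -0.37 in male Purkinje, male CA1 and Sertoli clones. After quantile normalization these were -0.0032, -0.25 and -0.03, none called.

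Atp5g3, a gene of the proton-carrying c ring with the ESRRA word in its promoter, rose in male (0.65 ± 0.19, limma adjusted p = 0.0114) and female Purkinje clones (0.88 ± 0.23, 0.00924). The rises were 0.08 and 0.16 after quantile normalization and -0.06 and -0.17 after normexp correction. In male CA1 clones it fell by 0.71 (SE 0.19, 0.00557), to 7.33, 7.46, 7.45 and 7.32 from 7.88 to 8.43 in male IVF, with no overlap and in all 4 normalizations. Atp5g2, another c ring gene, rose in male CA1 clones by 0.58 ± 0.21 (0.0395). Atp5d, the delta subunit of the central stalk, was 6.39, 6.35, 6.56 and 6.78 in male CA1 clones, above all male IVF arrays at 5.19 to 5.96, a rise of 1.00 ± 0.20 (0.000336) held in all 4. Atp5l, the membrane subunit g, fell in male Purkinje clones by 0.75 (SE 0.26, 0.0287), to -0.86, -1.01, -0.48 and -1.02 from -0.39 to 0.46, with no overlap and in all 4.

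Cox4nb, the gene outside the chain, was lower in Sertoli clones at 1.06, 0.64, 1.00 and 1.02 than in male IVF at 1.41 to 2.21, with no overlap and in all 4 normalizations (-0.82 ± 0.24, limma adjusted p = 0.0144). Male CA1 clones had 2.03, 1.69, 1.88 and 1.92, all above the Sertoli arrays (0.95 ± 0.28, adjusted p = 0.0251).

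**Figure D4:**
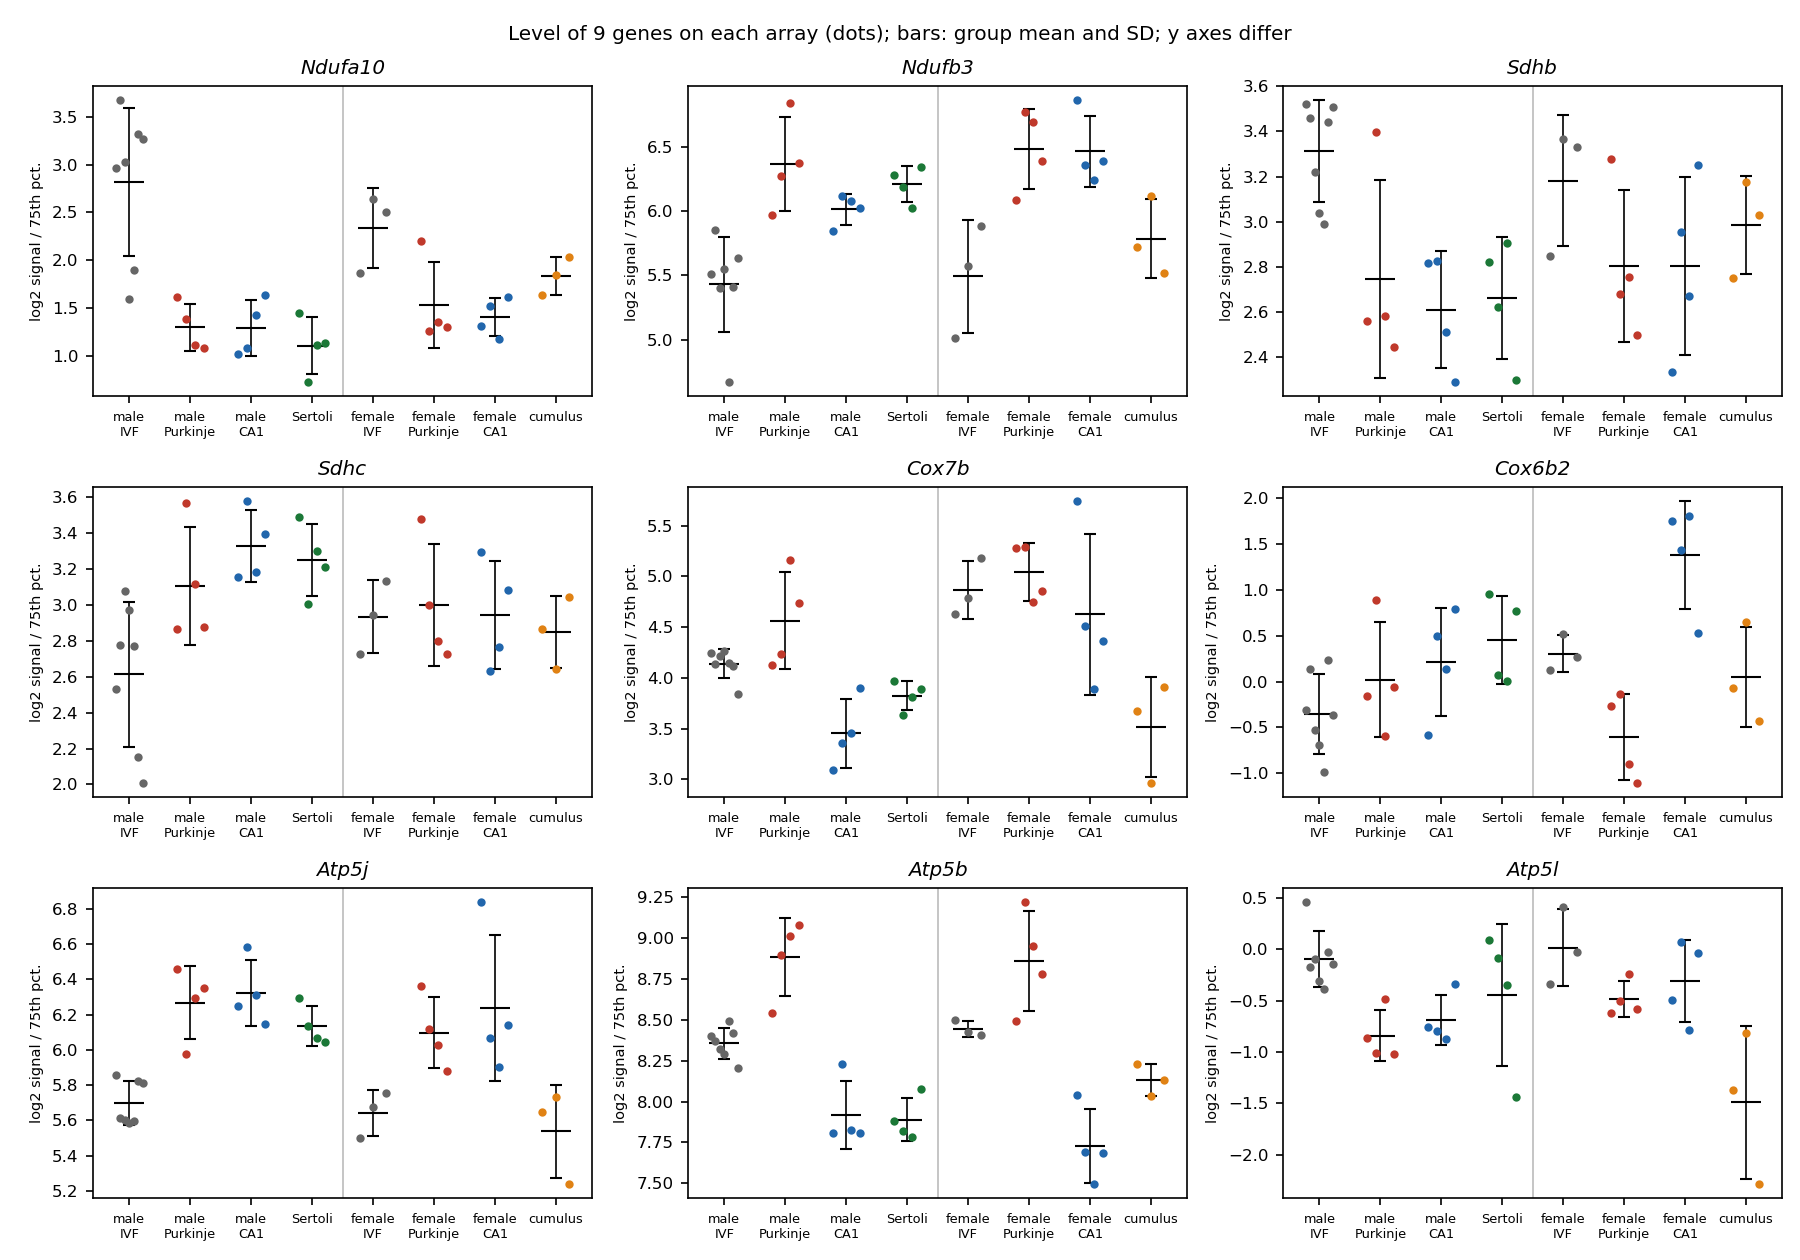
Levels of 9 genes on each of the 33 arrays (dots, log2 signal over the array's 75th percentile), by group, with the group mean and SD as bars; the y axes differ. All 12 male clone arrays of neuronal and Sertoli donors lie above male IVF for Atp5j, Ndufa10 is lower in the male clones, and Atp5b is high in the Purkinje groups and low in the CA1 groups.

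Cumulus clones and female IVF shared scanner and software but not slide or scan day, which cannot be told apart from cloning and donor. The genes' median change was negative in all 4 normalizations. It was -0.41, and -0.02 over all genes, with 16 of 82 genes above 0, and -0.44, -0.32 and -0.36 after quantile, array median and normexp processing. In 38 genes all 3 cumulus arrays lay below all 3 IVF arrays and in 7 above, against 15.7% and 9.71% of all genes, and after quantile normalization in 41 and 8, against 16.3% and 9.79% of all genes. Complex I had a median of -0.42, complex III of -0.56, complex IV of -0.42 and complex V of -0.30, whereas complex II had 0.04.

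The 4 called genes came from complexes III to V. Atp5l was -1.37, -0.81 and -2.29 in cumulus clones and -0.34, 0.41 and -0.03 in female IVF, a fall of 1.5 (SE 0.33, limma adjusted p = 0.00967) held in all 4 normalizations. Cox7b was 3.67, 2.96 and 3.91 against 4.63, 4.79 and 5.18 and fell by 1.35 (SE 0.32, adjusted p = 0.0156). Cox7a2l, which ties complexes III and IV into supercomplexes, was 1.60, 1.38 and 1.88 against 2.66, 2.96 and 2.29 and fell by 1.02 (SE 0.23, adjusted p = 0.0121). Uqcrh, the acidic hinge protein that helps cytochrome c bind, was 4.53, 4.51 and 4.48 against 5.65, 5.59 and 5.24 and fell by 0.99 (SE 0.24, adjusted p = 0.0179). None of the 4 overlapped female IVF. Without female IVF replicate 2 only 1 gene was called.

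Clones of different donors were compared within the present array set. Male Purkinje clones had 18 genes higher and 2 lower than male CA1 clones (22% and 2.44%, against 10.8% and 7.5% of all genes, 18.3% in all), and 10 and 6 after quantile normalization (against 7.84% and 8.96%, 16.8% in all). In all 4 normalizations 6 were higher and 2 lower (against 4.3% and 6.42% of all genes). Atp5g3 differed by 1.36 ± 0.22 (limma adjusted p = 9.79e-05), with 7.89, 8.63, 9.22 and 9.28 in Purkinje against 7.33 to 7.46 in CA1 clones. The levels of 9.22 and 9.28 were on arrays with a 75th percentile under 500, whose part was not tested. Cycs differed by 1.02 ± 0.22 (0.00249), Uqcrfs1 by 1.02 ± 0.18 (0.000407) and Cox7b by 1.11 ± 0.28 (0.007), each without overlap and in all 4. Ndufa3 was lower by 0.96 (-0.96 ± 0.24, 0.00649) on its brightest probe, and differed by 0.31 as the mean of its probes. Without the dim arrays 4 genes were called (3.74% of all genes).

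Female Purkinje clones had 12 genes higher and 1 lower than female CA1 clones (14.6% and 1.22%, against 6.15% and 4.78% of all genes, 10.9% in all), and 5 and 1 after quantile normalization (against 4.41% and 4.3%, 8.71% in all). After array median scaling 1 was higher and 10 lower (against 1.66% and 18.1% of all genes), with a median of -0.36, and -0.38 over all genes. Sdhd differed by 1.02 ± 0.24 (limma adjusted p = 0.00741), with 5.19, 5.54, 5.62 and 5.37 against 4.63, 4.34, 4.19 and 4.47. The difference was 0.93 after quantile normalization and was called there. The single lower gene was Cox6b2. Without the dim arrays 0 were called by limma (0.528% of all genes), and 10 were at an unadjusted p under 0.05 (8.87% of all genes).

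Against Sertoli clones, male Purkinje clones had 7 genes higher and 0 lower (8.54% higher, against 3.31% of all genes higher and 1.41% lower, 4.71% in all), and 1 and 0 after quantile normalization (against 2.2% and 1.46%, 3.66% in all). The gene called in both, and in all 4 normalizations, was Cox7c, at 6.04, 6.31, 6.69 and 6.41 against 5.24, 4.99, 4.95 and 5.13. It differed by 1.29 ± 0.20 (limma adjusted p = 0.000246), with no overlap. Male CA1 clones had 3 genes higher and 2 lower than Sertoli clones (against 5.45% and 6.28% of all genes, 11.7% in all), and 11 and 3 after quantile normalization (against 6.31% and 5.66%, 12% in all). Atp5d was higher by 0.96 ± 0.22 (0.00643), at 6.39, 6.35, 6.56 and 6.78 against 5.08, 5.5, 5.47 and 6.2. Ndufs1 was lower by 0.69 (-0.69 ± 0.16, 0.00521), at 4.96, 5.17, 4.91 and 4.62 against 5.90, 5.41, 5.69 and 5.40.

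Female and male IVF blastocysts differed in 0 of the 82 genes by limma's adjusted p (0.434% of all genes), also in the other normalizations, and in 9 at an unadjusted p under 0.05 (12.5% of all genes). The median difference was -0.11, and 0.17 after array median scaling, which moved the median of all genes to 0.21. Within the slide that held both sexes it was 0.16, which rests on 1 male array. The test of whether the Purkinje or the CA1 effect differed between the sexes called 0 genes each by limma (0.0566% and 1.07% of all genes). For Purkinje 3 and for CA1 12 were under an unadjusted p of 0.05 (7.65% and 13.6% of all genes), and the nearest described above was Cycs at -1.08 ± 0.32 (adjusted p = 0.0929). Male CA1 and female CA1 counts of 25 and 6 are therefore not shown to differ gene by gene.

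The other genes of the pathway followed lists set by function. Assembly factors build the complexes without staying in them. Of 39 tested, 15, 13, 12, 10 and 10 were higher and 0, 1, 1, 0 and 0 lower in male Purkinje, male CA1, Sertoli, female Purkinje and female CA1 clones. The shares higher were 38.5%, 33.3%, 30.8%, 25.6% and 25.6%, beside the 18.2%, 17.6%, 14.9%, 13% and 8.36% of all genes given above. After quantile normalization 8, 12, 7, 6 and 4 were higher and 1, 1, 5, 0 and 0 lower. The shares higher were then 20.5%, 30.8%, 17.9%, 15.4% and 10.3%, beside 12.1%, 15.6%, 11.2%, 7.55% and 4.98% of all genes. In cumulus clones 0 were higher and 2 lower under both normalizations. The 2 were 5.13% of the list, against 3.33% of all genes lower, and 4.37% after quantile normalization. The 5 clone groups were on another array set than IVF, and the cumulus clones were not. For this list and those below, donor and array set cannot be told apart in the 5 comparisons.

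Acad9, which helps assemble the membrane arm of complex I, was higher in all 5 under both normalizations. Its mean was 5.01 ± 0.41 (n = 7) in male IVF, 6.55 ± 0.65 in male Purkinje, 6.85 ± 0.15 in male CA1 and 6.13 ± 0.16 in Sertoli clones (n = 4 each). In females it was 4.92 ± 0.46 (n = 3) in IVF, 6.80 ± 0.34 in Purkinje and 6.22 ± 0.32 in CA1 clones (n = 4 each), and 5.03 ± 0.52 (n = 3) in cumulus clones, so the cumulus mean stood at the IVF level. Its partner Tmem126b was higher in male Purkinje (1.44), male CA1 (1.05), Sertoli (0.71) and female Purkinje clones (1.35) under both. Cox15, needed to make the haem A of complex IV, was higher in the same 4 groups, by 1.60, 0.73, 1.33 and 1.06. Pet100, a complex IV assembly factor, rose by 2.03 in male CA1 and by 1.05 in female CA1 clones.

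**Figure D5:**
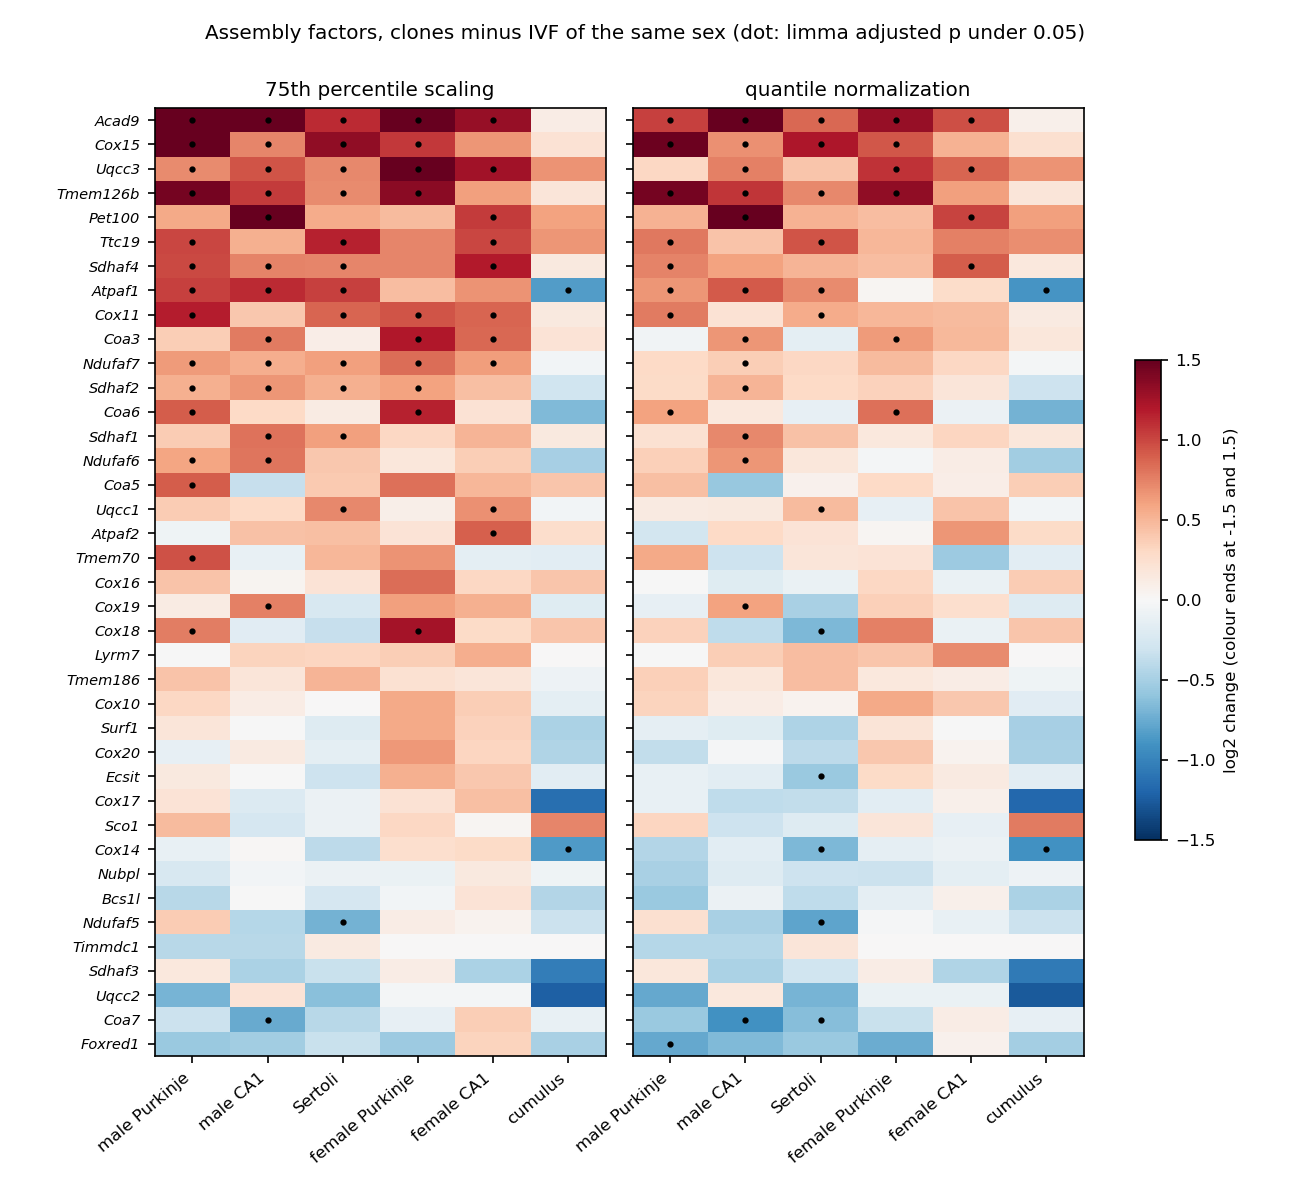
log2 change of 39 assembly factors (rows, ordered by their mean over the first 5 columns) in clones minus IVF of the same sex, under 75th percentile scaling (left) and quantile normalization (right); colour ends at -1.5 and 1.5, and a dot marks limma's adjusted p under 0.05. Acad9, Cox15 and Tmem126b are called in at least 4 of the first 5 columns of both panels, and the cumulus column has 2 dots, both blue.

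Of 18 regulators of these genes tested, 2, 0, 2, 1 and 2 were higher and 2, 5, 3, 1 and 1 lower in the same 5 comparisons. After quantile normalization 1, 0, 2, 1 and 0 were higher and 2, 5, 4, 1 and 2 lower. On the scaled values the shares called in either direction were 22.2%, 27.8%, 27.8%, 11.1% and 16.7%. They stood beside the 28.5%, 30.9%, 25.7%, 19.6% and 13.2% of all genes given above. After quantile normalization the shares were 16.7%, 27.8%, 33.3%, 11.1% and 11.1%, beside 25.5%, 31.1%, 24.4%, 16.2% and 11.5% of all genes. Gabpa, the DNA-binding subunit of GABP, rose by 1.25, 1.55, 1.29 and 1.08 in male Purkinje, Sertoli, female Purkinje and female CA1 clones. After quantile normalization the last was 0.76 and not called (adjusted p = 0.0763). Tfam, which packages mitochondrial DNA, fell by 1.05 in male CA1 and by 0.99 in female CA1 clones, and Polg, the mitochondrial DNA polymerase, by 0.67, 0.62 and 0.89 in male Purkinje, male CA1 and Sertoli clones. Esrra fell by 0.72 and 1.07 in male CA1 and Sertoli clones, and binding of its product to any promoter was not measured. Of 11 citric acid cycle genes tested, 4, 1, 2, 2 and 0 were higher and 2, 2, 2, 0 and 1 lower. The shares called were 54.5%, 27.3%, 36.4%, 18.2% and 9.09%, beside the shares of all genes given for the regulators. After quantile normalization 1, 1, 2, 1 and 0 were higher and 4, 5, 5, 3 and 3 lower. These were shares of 45.5%, 54.5%, 63.6%, 36.4% and 27.3%, beside 25.5%, 31.1%, 24.4%, 16.2% and 11.5% of all genes. Among these genes Sucla2 rose by 1.21, 0.73, 1.38 and 1.47 in male Purkinje, male CA1, Sertoli and female Purkinje clones. Of the 8 genes of ATP and ADP exchange, 2, 1, 0, 2 and 1 were higher and 0, 3, 1, 0 and 2 lower. The shares called were 25%, 50%, 12.5%, 25% and 37.5%, beside 28.5%, 30.9%, 25.7%, 19.6% and 13.2% of all genes. After quantile normalization 1, 2, 1, 1 and 1 were higher and 1, 3, 2, 0 and 2 lower. These were shares of 25%, 62.5%, 37.5%, 12.5% and 37.5%, beside 25.5%, 31.1%, 24.4%, 16.2% and 11.5% of all genes. Slc25a5, an ADP/ATP carrier, fell by 1.33, 1.23 and 0.90 in male CA1, Sertoli and female CA1 clones.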

How the data were processed

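The deposited scanner files hold spot intensity on a linear scale. The column used, the processed signal, was background-corrected by Agilent Feature Extraction 10.5.1, per the submitters' processing notes; per the file headers, the version was 10.5.1.1 on 20 arrays and 9.5.3.1 on 13. Control and outlier spots were left out, spots of a probe averaged, and signals divided by the array's 75th percentile, floored at 0.0929 of it (-3.43 on the log2 scale) and logged. Probes well above background on over 50% of a group's arrays, above the floor on 3 arrays and with 2 values in every group were kept, and the brightest stood for a gene. All 33 arrays entered 1 limma 3.58.1 model of group means in R 4.3.3 (25 residual degrees of freedom), with Benjamini-Hochberg adjustment over 15915 genes; every adjusted p is limma's. Quantile normalization, array median scaling, normexp with offset 50 on feature and background median signals (used in place of mean signals), no dim filter, the mean of probes, a floor of 1, slide as a random block, a replicate block, leaving arrays out and the authors' deposited log2 value table served as alternatives. The authors do not state its scale or centring; set against the scanner signals it is log2 over the 75th percentile, centred per probe within a sex (column medians -0.59 to 0.77), and was used within a sex only.

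On simulated data for the male Purkinje comparison (15915 genes, 100 of them changed), 43% of log2 changes of 1 and 88% of those of 2 were recovered. Each of these 2 settings also gave 9 false calls. The members and lists were chosen with earlier results of these data known. Genes named were up to 3 per complex called the same way in most IVF comparisons, the 2 largest calls of each comparison and the tissue isoforms; Ndufs1, Ndufv1, Ndufv2, Sdhd, Cox5a, Cox7a2l, Uqcrh, Atp5a1, Atp5g2 and the genes of other lists were added after their values were seen. Replicate numbers were checked for pairing, and 5 of 21 pairs deviated together at r above 0.1 (range -0.21 to 0.24). The main model used no pairing. Whether replicates of the same number shared a session or an array position was not tested. The number of arrays limits the precision. A member gene that counts and medians include is not reported here by name.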

Additional observations from a re-analysis of the deposited data

Results flagged for a closer look

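In the groups of 4 to 7 arrays, 12 values of the described genes lay apart from the rest of their group by Dixon's criterion. They came out of 174 groups of values looked at (6.9%), and chance gives about 1 in 20. The 174 include groups with most values on the floor, which could not be flagged. The share among the remaining groups is therefore above 6.9%. Values are log2 signals over the array's 75th percentile.

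Of these, 3 came from male CA1 replicate 2, which was high for Ndufa3 (4.245, others 3.764 to 3.834), Cox7a1 (0.6194, others -0.4596 to -0.4101) and Atp5b (8.231, others 7.808 to 7.828). Female Purkinje replicate 1, the brightest array of its group, gave another 3: it was high for Ndufa10 (2.2, others 1.259 to 1.357) and Cox4nb (1.776, others 0.9915 to 1.021) and low for Uqcrb (5.056, others 5.728 to 5.767).

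Female CA1 replicate 3 was low for Ndufb5 (2.545, others 3.76 to 3.916). Male Purkinje replicate 2 was high for Sdhb (3.397, others 2.444 to 2.585), and Sertoli replicate 2 was low for Cox4nb (0.6361, others 0.9989 to 1.056). Among male IVF arrays, replicate 5 was low for Ndufb3 (4.669, others 5.401 to 5.854), replicate 7 was low for Cox7b (3.838, others 4.116 to 4.262) and replicate 1 was high for Atp5l (0.4567, others -0.3854 to -0.03058).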

How the results depend on the processing

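Of 79 named changes, 48 kept direction and call after quantile normalization, 40 after array median scaling, 49 after normexp, 45 without the 5 dim Purkinje arrays, 72 without the dim filter or with a slide block, and all 79 with a floor of 1. The number of arrays limits the precision. The cause of each change listed here was not tested. Array median scaling moved the median of all genes to -0.14 in male and -0.33 in female Purkinje clones against IVF and to -0.38 in female Purkinje against CA1 clones. Calls were as follows (comparison, then calls among the described genes and among all 15915 genes). Male Purkinje against IVF: 13 and 3663 (array median), 15 and 4276 (normexp), 5 and 1690 (without the dim arrays). Sertoli: 25 and 3878 (quantile). Female Purkinje: 4 and 2586 (quantile), 9 and 3269 (median, the 9 all lower), 4 and 2784 (normexp). Female CA1: 2 and 1581 (median). Cumulus: 12 and 1086 (quantile), 1 and 506 (median), 8 and 955 (normexp). Male Purkinje against CA1: 12 and 1923 (median), 4 and 596 (without dim arrays). Female Purkinje against CA1: 6 and 1386 (quantile), 6 and 1400 (normexp). Male Purkinje against Sertoli: 1 and 583 (quantile), 3 and 399 (median), 1 and 847 (normexp), 3 and 185 (without dim arrays). Male CA1 against Sertoli: 14 and 1905 (quantile), 2 and 1179 (median), 13 and 2058 (normexp), 3 and 1411 (slide block), 9 and 1951 (without dim arrays). Without the dim filter this last comparison had 3 and 1349, among 27937 genes. Reversed were Atp5b in male Purkinje clones against IVF (-0.051, quantile), Atp5g3 in male and female Purkinje clones (-0.064 and -0.17, normexp) and Ndufa3 in male Purkinje against CA1 clones (0.31, mean of probes).

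With the replicate number as a block, 64 of 79 named changes kept direction and call. Female CA1 clones then had 10 calls against IVF in place of 6 (over all genes 2218 in place of 2105). Counts of the other comparisons stayed within 1.5 times. Leaving out 1 array gave 13 to 25 calls in male Purkinje (lowest without male Purkinje replicate 3), 19 to 27 in male CA1, 10 to 14 in Sertoli, 8 to 18 in female Purkinje (lowest without female IVF replicate 1), 2 to 12 in female CA1 (lowest without female IVF replicate 1, highest without female CA1 replicate 3) and 1 to 5 in cumulus clones (lowest without female IVF replicate 2), all against IVF. Between clones it gave 13 to 24 for male Purkinje (lowest without male Purkinje replicate 3) and 9 to 17 for female Purkinje against CA1, 4 to 10 for male Purkinje (lowest without male Purkinje replicate 3) and 2 to 6 for male CA1 against Sertoli (lowest without Sertoli replicate 2). It gave 0 to 0 between IVF sexes and for the Purkinje sex difference, and 0 to 1 for the CA1 one. Calls over all genes were not counted in these fits, so the ranges are not read as particular to the described genes. Slide as a fixed block among IVF arrays, added after the data were seen, rests on 1 male array; it gave 0 calls between the sexes, from which nothing is read.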
